A study of Mus musculus with 18 samples.

Results

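Cells take up glucose and amino acids and move lactate across the membrane through solute carriers. The accessibility of the genes of 5 such families was determined in mouse bone marrow-derived macrophages (BMDMs), which are differentiated in culture from bone marrow precursors. The members were the protein-coding genes of GENCODE release M21 whose symbol is Slc1a, Slc2a, Slc7a, Slc16a or Slc38a followed by a number. They comprised 59 of 21938 protein-coding genes on the mm10 genome: 7 Slc1a, 12 Slc2a, 15 Slc7a, 14 Slc16a and 11 Slc38a genes.

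Chromatin accessibility had been measured by ATAC-seq, in which the Tn5 transposase inserts adapters into exposed DNA. The cells were wild type BMDMs from male C57/BL6 mice, and all of them, the untreated group included, were incubated with the solvent DMSO for 1 h. A single group got nothing further. The others were stimulated with lipopolysaccharide (LPS, a bacterial cell wall component) or the cytokine interleukin 4 (IL-4), each at 10 ng/mL, for 30 min, 1 h, 2 h or 4 h. This gave 9 groups of 2 libraries, 18 in all. What separates the 2 libraries of a group (mouse, culture or preparation) is not given in the labels.

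The 3 lists held 82391 reference peaks, 59617 extended regions and 84660 summits pooled over all libraries. No list had a column per library, so a stimulus, a time point or the spread between libraries could not be read for any transporter, and how deeply each library was sequenced is unknown. Every value below describes the pooled catalog, and no test was possible. The label of the cells was compared with marker genes, which were chosen with earlier results of these data known and are no independent check. A peak lay at a start site of 8 of 8 macrophage markers and of 2 of 9 markers of other cells, namely Gfap (score 934) and Col1a1 (score 613), next to 56.5% of all protein-coding genes.

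These families divide the transport work between them. Slc2a genes encode facilitative sugar carriers (GLUTs), and Slc16a genes encode monocarboxylate carriers (MCTs) that move lactate and pyruvate together with a proton. Slc1a carriers take up glutamate or small neutral amino acids, Slc38a carriers move glutamine and other neutral amino acids with sodium, and Slc7a proteins carry cationic amino acids or act as light chains that exchange amino acids as partners of a heavy chain. Activated macrophages are known for a high uptake of glucose and release of lactate, and for the use of arginine, glutamine and cystine.

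The sequence under a few start site summits is shown first, because these windows hold the letters of elements that are commonly sought at nutrient transporter genes. They are written 5′ to 3′ along the strand of the gene and were taken from the GRCm38 genome (mm10 coordinates). Capitals mark the C/EBP-ATF response element (CARE, TGATGNAA), which ATF4 can bind, at 3 members.
Slc7a11, chr3:50443615-50443780 (minus strand): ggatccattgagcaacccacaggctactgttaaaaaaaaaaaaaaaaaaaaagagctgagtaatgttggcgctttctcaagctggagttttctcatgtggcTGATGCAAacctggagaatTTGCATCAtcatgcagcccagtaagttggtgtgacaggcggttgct
Slc16a14, chr1:84935790-84935990 (minus strand): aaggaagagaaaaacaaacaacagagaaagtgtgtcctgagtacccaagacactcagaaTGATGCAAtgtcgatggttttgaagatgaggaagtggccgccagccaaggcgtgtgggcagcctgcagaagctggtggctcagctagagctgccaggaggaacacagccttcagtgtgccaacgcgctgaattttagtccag
Slc7a1, chr5:148399821-148399848 (minus strand): ggcgcgcggcTGATGAAAccggctcgga
The stretch of Slc7a1 lies in an exon and was kept to the surroundings of the element, while the other windows are free of annotated exons. Slc7a11 encodes xCT, the cystine-glutamate exchanger, Slc7a1 the arginine carrier CAT1, and Slc16a14 a monocarboxylate family member. The Slc7a11 window contained the element 2 times, on opposite strands.

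At the next members capitals mark the core of the hypoxia response element (HRE, ACGTG), the E-box (CACGTG), the antioxidant response element (ARE, TGACNNNGC) or the AP-1 site (TGANTCA). An E-box always contains an HRE core.
Slc16a3, chr11:120950936-120951136 (plus strand): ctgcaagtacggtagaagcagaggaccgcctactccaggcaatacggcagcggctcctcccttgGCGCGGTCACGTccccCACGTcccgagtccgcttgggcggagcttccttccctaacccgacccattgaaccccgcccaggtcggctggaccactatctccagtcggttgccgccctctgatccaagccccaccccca
Slc38a2, chr15:96698818-96698983 (minus strand): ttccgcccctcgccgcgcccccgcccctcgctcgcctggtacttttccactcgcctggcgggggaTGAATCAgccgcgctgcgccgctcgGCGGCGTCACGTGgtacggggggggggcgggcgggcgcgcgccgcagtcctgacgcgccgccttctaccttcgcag
Slc2a5, chr4:150138189-150138389 (plus strand): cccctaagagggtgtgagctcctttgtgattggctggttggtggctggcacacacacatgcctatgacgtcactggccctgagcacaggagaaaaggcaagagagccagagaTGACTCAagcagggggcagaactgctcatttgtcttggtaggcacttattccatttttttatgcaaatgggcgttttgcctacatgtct
Slc16a3 encodes the lactate exporter MCT4, Slc38a2 the glutamine carrier SNAT2 and Slc2a5 the fructose carrier GLUT5. The Slc38a2 summit lay in an intron near an internal start site, and the peak over its most upstream start site was scored 759. In Slc16a3 and Slc38a2 an ARE and an HRE core overlapped, and the first run of capitals in Slc16a3 and the second in Slc38a2 cover both. In Slc2a5 the marked letters are those of an AP-1 site.

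A start site peak, defined as a reference peak no more than 1000 bp from an annotated start site, was found for 32 of 59 members (54.2%, 95% Wilson interval 41.7 to 66.3%). Over all protein-coding genes the share was 56.5% (12402 of 21938), and over 324 other Slc genes it was 59.0%, so that the transporters as a whole were close to the background. When peaks shared with a start site of another protein-coding gene were left out, the order turned, with 52.5% of members (31 of 59) and 46.6% of all genes. The share was highest in Slc2a (8 of 12, 66.7%, interval 39.1 to 86.2%), followed by Slc16a (8 of 14, 57.1%, 32.6 to 78.6%) and Slc38a (6 of 11, 54.5%, 28.0 to 78.7%). It was lower in Slc7a (7 of 15, 46.7%, 24.8 to 69.9%) and Slc1a (3 of 7, 42.9%, 15.8 to 75.0%). The intervals of all 5 families overlapped and contained the background share, so no order of the families can be read from them. These intervals cover counting error only.

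**Figure D1:**
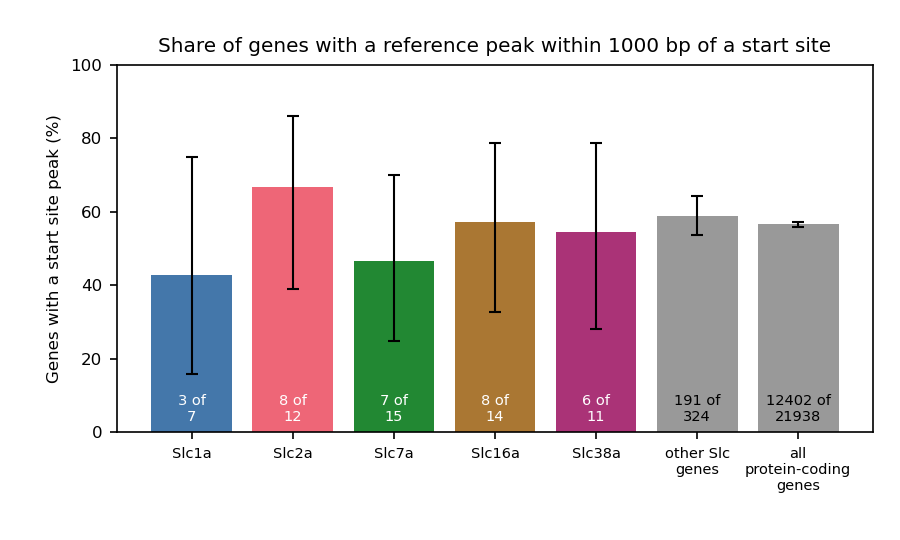
Share of genes with a start site peak (%, y axis) in each family, in the other Slc genes and in all protein-coding genes, with 95% Wilson intervals as error bars and the counts in the bars. Family shares run from 42.9% (Slc1a) to 66.7% (Slc2a), and every family interval includes the 56.5% of all genes.

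Each summit carries a score given by the authors, whose scale is not stated. It ran from 102 to 2781 over the catalog with a median of 737, and the best score among a gene's start site peaks was used to rank genes within this list. Members with a start site peak had best scores from 644 to 2048 with a median of 1474.5, next to 1456 for all protein-coding genes with such a peak. Of the 32 members, 16 were at or above that gene median, which was also the case for 50.5% of all genes. The third quartile of all genes was 1799 and the first 1071, and 7 members were above the former and 10 below the latter. Median scores by family were 1735 for Slc38a, 1606 for Slc1a (3 genes), 1474.5 for Slc16a, 1255.5 for Slc2a and 1129 for Slc7a, with ranges that overlapped between all families. This order depended on the start sites used. Within 2500 bp the Slc2a median was 1670, above Slc1a (1606) and Slc16a (1474.5). With the most upstream start site only, Slc1a (1827) was above Slc38a (1735), and Slc2a (968) below Slc7a (1129).

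**Figure D2:**
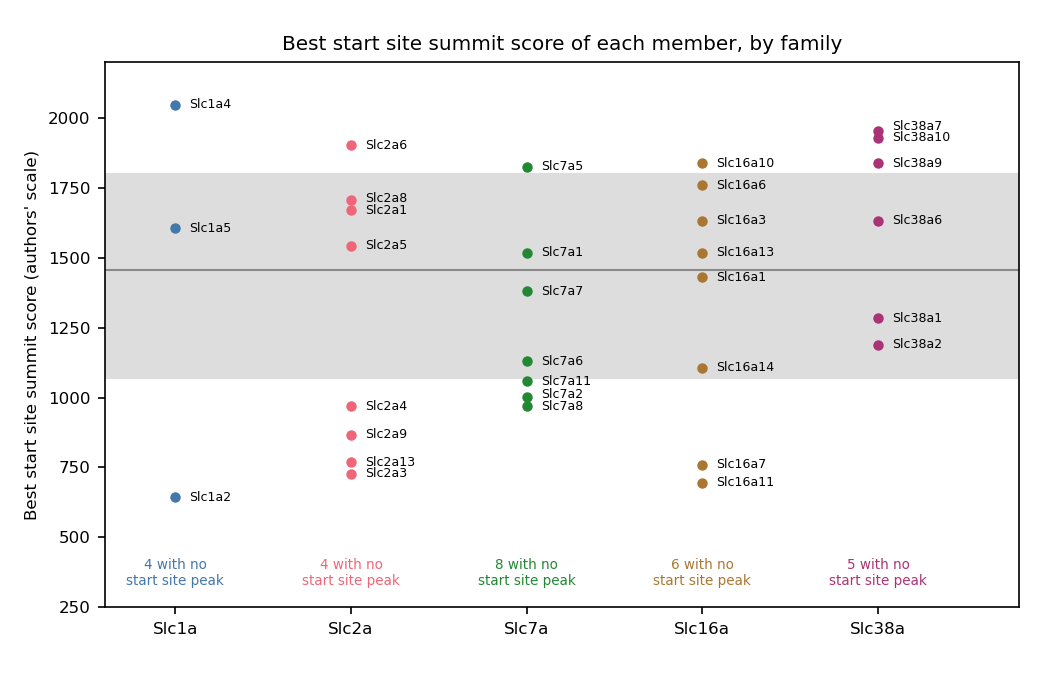
Best start site summit score (y axis, authors' scale) of the 32 members with a start site peak, 1 point per gene, by family. The line and the grey band mark the median (1456) and the interquartile range (1071 to 1799) of all protein-coding genes with a start site peak; Slc1a4 (2048) is highest and Slc1a2 (644) lowest.

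The glucose carriers differed widely. Slc2a1, which encodes GLUT1, the general glucose carrier of most cells, had 2 start site peaks scored 1670 and 1345, the better one at chr4:119108464-119108962 with its summit 45 bp upstream of the start site. Slc2a1 stood at the 65.1 percentile of genes with a start site peak. Slc2a3, which encodes the high affinity carrier GLUT3, reached only 727 (10.2 percentile). Its 2 start site peaks lay at the most distal of 8 annotated start sites (chr6:122801301-122801516). The 5 start sites between positions 122742262 and 122742920 had no peak closer than 10199 bp.

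Slc2a4, which encodes the insulin-responsive GLUT4, had a best score of 968, and Slc2a2 (GLUT2 of liver and pancreatic islets) had no peak closer than 24687 bp to a start site. The highest value among the sugar carriers was found for Slc2a6, which encodes GLUT6, a carrier known from inflammatory macrophages. Its 5 start site peaks were scored 1903, 1505, 1381, 812 and 664, and the best one (chr2:27027850-27028247) placed it at the 82.1 percentile. Slc2a8, an intracellular carrier gene, followed with 1708.

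Carriers of other sugars and of urate also had start site peaks. Slc2a5 (fructose) was scored 1543 at chr4:150138107-150138441, a peak that lay in an intron with its edge 911 bp from the start site, close to the limit of the window. Slc2a9 (urate) reached 867 and Slc2a13 (myo-inositol) 769, both below the first quartile of genes. With RefSeq start sites, an alternative chosen after seeing the data, Slc2a5 and Slc2a9 had no start site peak. No start site peak was found for Slc2a2, Slc2a7, Slc2a10 or Slc2a12.

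Among the lactate and pyruvate carriers, 3 of 4 had a start site peak (95% Wilson interval 30.1 to 95.4%, all genes 56.5%). Slc16a3, the MCT4 gene, had start site peaks scored 1632, 923 and 634, of which the best lay at chr11:120950825-120951177. Slc16a1, the MCT1 gene, had a single annotated start site and a peak scored 1431 (chr3:104638428-104638750). Slc16a3 and Slc16a1 stood at percentiles 62.5 and 48.3. The best peak of Slc16a3 belongs to start sites inside the gene, and with the single RefSeq start site, an alternative chosen after seeing the data, its best score was 923. Slc16a7, the gene of the high affinity carrier MCT2, had 4 start site peaks but none above 759, and Slc16a8 (MCT3 of the retinal pigment epithelium) had none.

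The highest score of the MCT family, 1838, belonged to Slc16a10, which encodes the aromatic amino acid carrier TAT1 (chr10:40142112-40142527). Slc16a6 reached 1760, but its peak also lay within 1000 bp of a start site of the neighbouring gene Arsg and cannot be assigned to either gene. Its other start site peaks were scored 968 and 402. Slc16a13 (1518), Slc16a14 (1106) and Slc16a11 (695) completed the members with a start site peak. Slc16a4, Slc16a5, Slc16a9 and Slc16a12 were among the genes that lacked one.

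Both neutral amino acid carrier genes had a start site peak: Slc1a4 (ASCT1) had the best score of all members, 2048, in an 855 bp peak with 2 summits at chr11:20332594-20333448, and Slc1a5, which encodes the glutamine carrier ASCT2, reached 1606 (60.5 percentile) at chr7:16781088-16781476. Of the 5 glutamate carrier genes only Slc1a2 had a start site peak (interval 3.62 to 62.4%, all genes 56.5%), and its score of 644 was the lowest of all members. That peak lay 681 bp from 1 intronic start site, whereas the 5 start sites at the upstream end of the gene were at least 12715 bp from any peak. With RefSeq start sites Slc1a2 had no start site peak. Slc1a1, Slc1a3, Slc1a6 and Slc1a7 had none. These glutamate carriers are best known from neurons, glia and kidney.

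Slc7a genes were listed as cationic carriers or light chains, and Slc7a12 and Slc7a15 were on neither list. A start site peak was found for 2 of 5 genes of the cationic group (interval 11.8 to 76.9%, all genes 56.5%), Slc7a1 (CAT1) with 1518 and Slc7a2 with 1002. Slc7a2 encodes CAT2, an arginine carrier of activated macrophages. Slc7a3, Slc7a4 and Slc7a14 lacked one. Of 8 genes listed as light chains, 5 had a start site peak (62.5%, interval 30.6 to 86.3%, all genes 56.5%). This share covers the listed genes only. Slc7a5, which encodes LAT1, the carrier of large neutral amino acids, reached 1825 (chr8:121907573-121907883), the best value of the family.

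Slc7a7 encodes y+LAT1, an exporter of cationic amino acids. It had 9 start site peaks, more than any other member, scored from 349 to 1381. They lay along 12 start sites, of which 11 were within 1000 bp of a peak. The cystine exchanger Slc7a11 was scored 1059 and 393, the LAT2 gene Slc7a8 had a best score of 968, and Slc7a6 (y+LAT2) was scored 1129. Slc7a9, Slc7a10 and Slc7a13, and outside these lists Slc7a12 and Slc7a15, had no start site peak.

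In the Slc38a family, both genes listed as lysosomal carriers had a start site peak, with best scores of 1955 for Slc38a7 and 1838 for Slc38a9, an arginine sensor upstream of mTORC1 (chr13:112660497-112660876). The summit of Slc38a7 lay in an intron, 1025 bp downstream of the nearest start site, and the peak over its upstream start sites was scored 923. Slc38a10 reached 1929 and Slc38a6 1632, the latter in a peak shared with the start site of Trmt5. System A, the sodium-coupled carriers of small neutral amino acids, had start site peaks at Slc38a1 (1284) and Slc38a2 (1188, chr15:96698785-96699238) but not at Slc38a4. For these 2 of 3 genes the interval was 20.8 to 93.9%. Neither system N gene, Slc38a3 or Slc38a5, which carry glutamine and histidine, had a start site peak (interval 0 to 65.8%). Slc38a8 and Slc38a11 also lacked one.

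The partner genes were read the same way. Slc3a2, the heavy chain CD98 that carries most Slc7a light chains, had 6 start site peaks with a best score of 2074, and Slc3a1, the heavy chain of kidney and gut, had none. Bsg (2179), Nptn (2310) and Emb (402), which encode chaperones of monocarboxylate carriers, all had one. Txnip (1969) and Arrdc4 (2166), arrestins that lower glucose uptake, had high scores. Enzymes of the transported substrates also had start site peaks, namely Ldha (1394) and Ldhb (1141) for lactate, Gls2 (1456) and Glul (1760) for glutamine, and Gclc (1002) and Gclm (1786) for glutathione. Percentiles of these named enzymes ran from 21.4 (Gclc) to 74.0 (Gclm), and 56.5% of all genes had a start site peak. A start site peak was found for 4 of 5 heavy chains and chaperones (Wilson interval 37.6 to 96.4%). Both arrestins (interval 34.2 to 100%) and all 7 listed enzymes (interval 64.6 to 100%) had one. These lists were chosen with earlier results of these data known.

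The start site peaks of the transporters were single for 11 members, and 21 had 2 or more, giving 74 peaks in all. Members had 310 annotated start sites, of which 130 (41.9%) were within 1000 bp of a peak, next to 48.8% of the 93513 start sites of all protein-coding genes. Every start site was covered in 10 of the 32 members (31.2%, all genes with a start site peak 37.8%) and a part of them in 22. The best summit lay upstream of the gene in 21 members, in an intron in 8 and in an untranslated region in 3, at a median distance of 75.5 bp from the nearest start site (largest 1063 bp). The 74 peaks were 58 to 855 bp wide. The best peak of each member was 150 to 855 bp wide with a median of 329 bp, next to 356 bp for the best peaks of all genes. The 76 bases around each of the 32 summits, the length of a read, occurred once in the genome.

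Sequence composition around the start site differed between members with and without a peak, and likewise over all genes. The ratio of observed to expected CpG dinucleotides was computed in 300 bases around the start site nearest to the best summit, or around the most upstream start site where there was no peak. Its median was 0.665 in members with a start site peak and 0.369 in those without, next to 0.766 and 0.232 over all genes. With a ratio of 0.6 or more, 21 of 28 members (75%) had a start site peak, whereas 11 of 31 (35.5%) had one below it. The corresponding shares of all genes were 85.5% and 30.5%. Because the peak itself placed this window, the ratio was also taken at the most upstream start site of every gene, an alternative chosen after seeing the data. The medians were then 0.636 and 0.369 in members and 0.735 and 0.232 over all genes.

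The members also differed in the number of annotated start sites, with a median of 6 for those with a start site peak and 3 for those without (5 and 2 over all genes). A gene with more start sites has more chances to lie near a peak, and the part of this in the shares was not tested. Several members had a ratio unlike the median of their group. Slc16a11, Slc7a11 and Slc16a13 had a start site peak at ratios of 0.254, 0.276 and 0.277. Slc1a1 and Slc1a6 had none at 0.751 and 0.746.

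**Figure D3:**
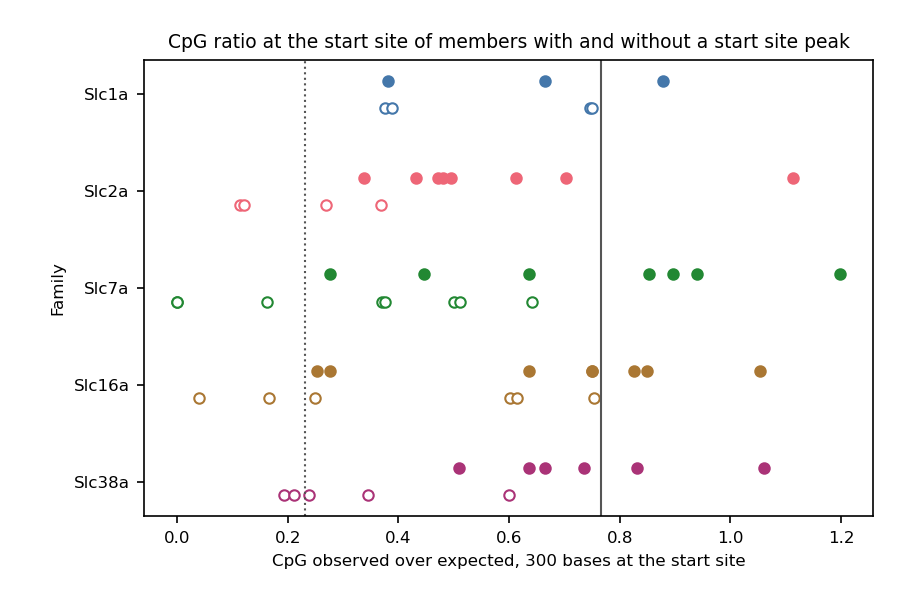
Ratio of observed to expected CpG in 300 bases at the start site (x axis) of each member, by family; filled points are members with a start site peak and open points those without. The solid and dotted lines are the medians of all protein-coding genes with (0.766) and without (0.232) a start site peak; filled points are found down to 0.254 (Slc16a11), and Slc1a1 is an open point at 0.751.

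Motif letters were counted within 100 bp of the best start site summit, on both strands. The CARE occurred at 3 of 32 members (9.38%), next to 1.43% of all genes with a start site peak, and these were Slc7a1, Slc7a11 and Slc16a14. The ARE occurred at 6 members (18.8%, background 12.1%), namely Slc1a2, Slc7a1, Slc7a6, Slc7a7, Slc16a3 and Slc38a2. The HRE core was found at 7 members (21.9%, background 21.2%), among them Slc2a1, Slc16a1 and Slc16a3, and the E-box at 2 (6.25%, background 9.07%). The order of the E-box shares turned within 200 bp of the summit (21.9%, all genes 12.9%). GGGCGGG, a site of SP and KLF factors, was the most frequent with 17 members (53.1%, background 43.5%).

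The AP-1 site was present at 3 members (9.38%, background 5.75%), Slc2a5, Slc38a1 and Slc38a2. The PU.1 site GAGGAAGT was present at Slc16a14 and Slc38a1 (6.25%, background 3.97%). Neither the NF-kB site GGANTTTCC (background 1.25%) nor the STAT6 site (background 3.3%) had a match at a member. These matches are letters in a window and do not show binding.

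Accessibility inside the genes was described by gene-body peaks, which overlap the gene and lie more than 1000 bp from all of its start sites. At least 1 such peak was found in 36 of 59 members (61.0%), next to 39.9% of all protein-coding genes and 50.3% of the other Slc genes. The members are longer (median 29.9 kb, all genes 17.4 kb), and longer members had more gene-body peaks (Spearman rho 0.657 across 59 genes, which are not independent, and 0.561 over all genes). Per 10 kb of summed length, members held 0.450 gene-body peaks and all genes 0.333. The part of length in the share of genes was not tested. By family, the share ran from 54.5% in Slc38a to 71.4% in Slc1a (58.3% in Slc2a, 60.0% in Slc7a, 64.3% in Slc16a).

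The 152 gene-body peaks were distributed unevenly. The 5 members with 10 or more peaks held 71 of them (46.7%), and the median member had 1. Best scores of these peaks ran from 102 to 2114, and their median of 737 was equal to the median of all summits, and 144 of the 152 summits were intronic. None lay within 1000 bp of a start site of another protein-coding gene, and 10 overlapped another annotated gene. In 9 of the 25 members with both kinds of peak, the best gene-body score was above the best start site score (36.0%, all genes with both kinds 28.3%). These were Slc1a2, Slc2a3, Slc2a9, Slc7a1, Slc7a8, Slc7a11, Slc16a7, Slc16a10 and Slc38a1.

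The strongest gene-body summit is given as 121 bases centred on the summit for the 5 members with 10 or more gene-body peaks and for Slc2a1, because the account of the gene bodies turns on these genes. Capitals mark motif letters where a searched motif was found.
Slc16a10, chr10:40128624-40128744 (minus strand): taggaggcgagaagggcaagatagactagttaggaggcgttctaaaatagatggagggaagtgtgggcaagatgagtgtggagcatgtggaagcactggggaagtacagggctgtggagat
Slc7a8, chr14:54768482-54768602 (minus strand): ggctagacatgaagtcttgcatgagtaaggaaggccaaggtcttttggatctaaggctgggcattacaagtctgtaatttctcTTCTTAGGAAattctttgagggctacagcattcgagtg
Slc38a1, chr15:96638308-96638428 (minus strand): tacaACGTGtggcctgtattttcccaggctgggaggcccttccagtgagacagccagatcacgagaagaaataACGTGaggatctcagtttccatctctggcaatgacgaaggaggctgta
Slc7a11, chr3:50406915-50407035 (minus strand): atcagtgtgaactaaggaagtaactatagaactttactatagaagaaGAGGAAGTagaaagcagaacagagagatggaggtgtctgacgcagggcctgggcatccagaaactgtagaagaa
Slc1a2, chr2:102701613-102701733 (plus strand): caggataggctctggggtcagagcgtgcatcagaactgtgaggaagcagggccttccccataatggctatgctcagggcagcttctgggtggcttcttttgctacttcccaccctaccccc
Slc2a1, chr4:119125586-119125706 (plus strand): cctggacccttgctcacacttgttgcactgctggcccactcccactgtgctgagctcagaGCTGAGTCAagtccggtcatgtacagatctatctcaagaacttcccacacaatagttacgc
Capitals stand for a STAT6 site in Slc7a8, 2 HRE cores in Slc38a1, a PU.1 site in Slc7a11, and an ARE overlapping an AP-1 site in Slc2a1. The 121 bases of Slc16a10 and Slc1a2 held none of the searched letters, but in both genes an AP-1 site lay farther out, within 100 bp of the summit.

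Slc16a10 had the most gene-body peaks, 18, of which 13 reached the median summit score. Their scores ran from 189 to 1929, and the best lay 13574 bp into the gene at chr10:40128465-40128867. Slc7a8 had 14, and its summit of 2114 at chr14:54768303-54768775, 13404 bp from the start, was the highest in any gene body of the members. This was more than its best start site score of 968. Further Slc7a8 gene-body peaks were scored 1568, 1531, 1369 and 1188, and the other 9 were at 923 or below.

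Slc1a2, whose upstream start sites had no peak, had 15 gene-body peaks scored up to 1518 (chr2:102701541-102701806) and 1480. The peaks scored 1480, 889 and 867 also overlapped the annotated gene Gm13872. Slc7a11 had 14 gene-body peaks in an annotated length of 551 kb, of which 10 lay within 100 kb of the most upstream start site. The highest was scored 1721 and lay 36639 bp into the gene (chr3:50406799-50407159), above both of its start site peaks.

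Slc38a1 had 10 gene-body peaks. The best, scored 1955, lay 4545 bp downstream of the most upstream start site at chr15:96638132-96638564, and 3 more at the far end of the series were scored 1394, 1141 and 889. Slc2a1 had 7, scored 376, 769, 867, 1036, 1493, 1493 and 1594, with the strongest 3 between 16935 and 18715 bp into the gene. Slc16a7 had 8 gene-body peaks with a highest score of 1153, next to 759 at its start sites.

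**Figure D4:**
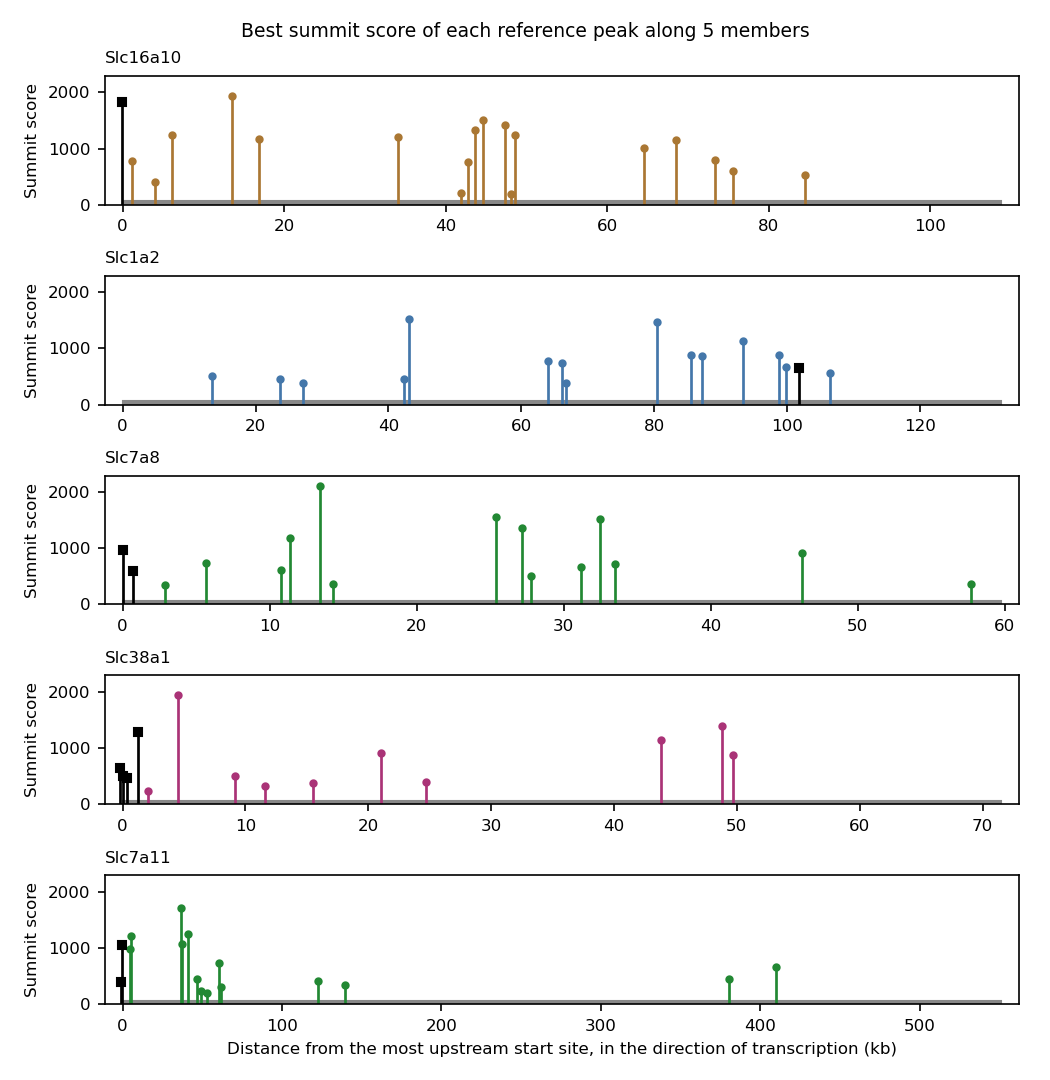
Reference peaks along 5 members, placed by their distance (kb, x axis) downstream of the most upstream start site and the best summit score (authors' scale, y axis). Black squares are start site peaks, coloured points gene-body peaks and the grey bar the annotated gene; the highest gene-body point exceeds the highest start site point in each of the 5 genes.

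Most motif shares at the 152 gene-body summits resembled those at all 61170 reference peaks more than 1000 bp from a protein-coding start site. The NF-kB and GGGCGGG shares were lower, with few matches. AP-1 letters were found at 36 gene-body summits (23.7%, background 23.6%), PU.1 letters at 18 (11.8%, background 10.7%) and STAT6 letters at 10 (6.58%, background 7.76%). The ARE was found at 23 (15.1%, background 12.5%), the HRE core at 22 (14.5%, background 10.9%) and the CARE at 10 (6.58%, background 4.5%). The GGGCGGG site, frequent at start sites, was found at 3 (1.97%, background 3.42%), the E-box at 8 (5.26%, background 3.8%) and NF-kB letters at 2 (1.32%, background 2.51%).

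The neighbourhood of each gene was described by the extended regions within 50 kb of its most upstream start site. At least 1 was present for 52 of 59 members (88.1%), next to 78.9% of all genes and 87.7% of the other Slc genes. The median was 6 regions in members (range 0 to 15), 4 over all genes and 5 over the other Slc genes. Slc2a had the highest family median, 7.5, followed by Slc38a (6), Slc16a (5), Slc7a (4) and Slc1a (3), each with a range that began at 0. The order after Slc2a changed with the setting. Within 100 kb Slc16a (11.5) and Slc7a (11) were above Slc38a (10). With reference peaks in place of extended regions Slc7a (7) was above Slc16a (6). Within 50 kb Slc7a7 had the most regions, 15. Slc2a3, Slc16a3, Slc16a10, Slc16a11, Slc16a13 and Slc38a1 had 12 each, and Slc7a5 had 11.

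Neighbouring members share windows: Slc16a11 and Slc16a13 had 11 regions in common, Slc2a5 and Slc2a7 5, and Slc38a1 and Slc38a2 3. The 340 counts therefore came from 321 distinct regions. Members with a start site peak had a median of 9 regions and those without 3, next to 7 and 1 over all genes. A start site peak inside the window can add its own region to this count, and that part was not tested. The window of a member can also hold regions of other genes, and a region was not assigned to any gene.

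**Figure D5:**
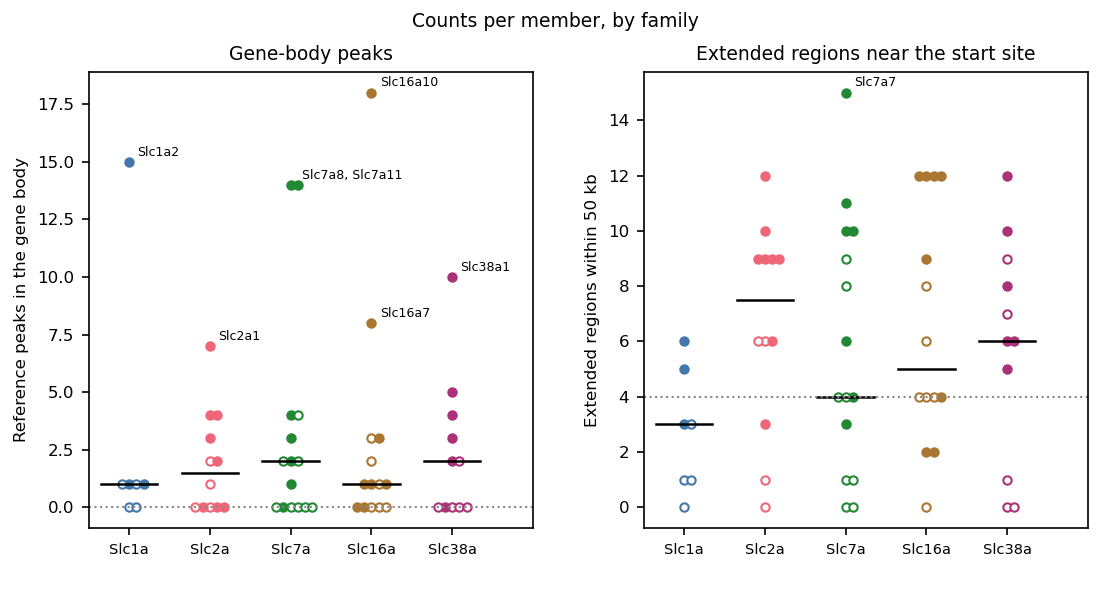
Gene-body reference peaks (left y axis) and extended regions within 50 kb of the most upstream start site (right y axis) per member, by family; filled points are members with a start site peak, open points those without, bars family medians and dotted lines the median of all protein-coding genes (0 and 4). The highest values are 18 for Slc16a10 on the left and 15 for Slc7a7 on the right.

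The 27 members without a start site peak were not alike. Slc2a7 was just outside the window, with a peak 1336 bp from a start site, while Slc16a14, Slc1a2 and Slc2a5 were inside it at 632, 681 and 911 bp. In all, 8 of the 27 (29.6%) had a peak within 10000 bp of a start site and 21 (77.8%) within 50000 bp. Of all 9536 genes without a start site peak, 28.1% and 53.8% did. A gene-body peak was present in 11 of them (40.7%), compared with 25 of 32 (78.1%) with a start site peak. The shares over all genes were 18.8% and 56.1%.

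Of the 11, Slc1a7 held the highest gene-body score, 1644, followed by Slc2a12 (1418), Slc7a15 (1381) and Slc38a11 (1188). No region within 50 kb was found for 7 members. Of these, Slc2a12 had gene-body peaks farther downstream. Slc1a6, Slc7a9, Slc7a12, Slc38a4 and Slc38a8 had no start site peak, gene-body peak or region within 50 kb, and the nearest peak to a start site of Slc1a6 was 205348 bp away.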

How the data were processed

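Libraries for ATAC-seq had a read length of 76 bases, read from a single end. The authors' methods name BBDuk for adapter removal, Trimmomatic 0.39 for trimming, the mapping steps of ShortStack on mm10, SAMtools 1.9 for filtering and MACS2 2.2.6 for peak calling with a fixed extension, without local background and with duplicates kept, so that a summit can include PCR copies. No shift towards the Tn5 cut site is stated. Peaks were selected by q-value and by overlap between replicates. The score in the deposited summit list is the authors' own. Its scale is not stated, nor on which libraries it was computed, although the summit names begin with ALL_MERGED. The 3 lists held 0 columns per library and 0 columns of other samples. Replicates could thus not be compared, and no depth or precision per library was derived.

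Positions are given on mm10, counted from 1. Genes came from GENCODE M21 and sequence from GRCm38.p6. Start sites were the 5′ ends of all annotated transcripts of a gene. Symbols had to match as a whole, which leaves out Slc7a6os. Extended regions were counted when they overlapped the window, and percentiles are over all protein-coding genes with a start site peak. Counts, Wilson intervals and motif searches were computed with Python 3.11.15 (numpy 2.4.6, pandas 2.3.3, scipy 1.17.1). The members, the lists of roles, partners and markers and the motifs were chosen with earlier results of these data known. Named with values were the 3 members of each family with the highest score, those with the most gene-body peaks or regions, those without a start site peak and transporters known from macrophage or metabolic work. Other members named beside these were chosen after their values were seen. Alternatives were other windows at start sites, genes and summits, peaks at or above the median score, peaks not shared with another gene, reference peaks in place of extended regions and, chosen after seeing the data, RefSeq start sites and the CpG ratio at the most upstream start site. The motif search at gene-body summits was also added after seeing the data. The values of 1 member and 1 partner gene are not reported here, although both are included in the totals.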

Additional observations from a re-analysis of the deposited data

How the results depend on the processing

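Of 177 values recomputed under alternatives, 158 stayed close to the reported one (counts within 1.5 times, medians within the 95% interval of the median over members) and 19 did not. The intervals of family medians were wide. A Slc16a median of 11.5 regions within 100 kb counted as close to 5 within 50 kb. A Slc7a median of 0 gene-body peaks at or above the median score counted as close to 2. Matching symbols by prefix left all values of Slc1a, Slc2a, Slc16a and Slc38a unchanged. The 158 is therefore no measure of robustness. The number of members with a start site peak ran from 29 to 33. With 500 bp, Slc1a2, Slc2a5 and Slc16a14 lost their peak (49.2% of members, all genes 54.9%), and with 2500 bp Slc2a7 gained one (55.9%, all genes 59.9%). With peaks at or above the median score, Slc1a2, Slc2a3 and Slc16a11 lost theirs (49.2%, all genes 50.7%), and without shared peaks Slc38a6 did (52.5%, all genes 46.6%). RefSeq start sites, an alternative chosen after seeing the data, covered 43 members, of which 20 (46.5%, all 16522 matched genes 56.1%) had a peak compared with 23 by GENCODE, because Slc1a2, Slc2a5 and Slc2a9 were lost.

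The median number of regions depended on the window by construction. Within 20 kb it was 2 over all members, 4 in Slc2a, 2 in Slc7a, 2 in Slc16a, 2 in Slc38a and 1 in Slc1a. Within 100 kb it was 10 over all members, 6 in Slc1a, 17 in Slc2a, 11 in Slc7a, 11.5 in Slc16a and 10 in Slc38a. With the gene body plus 50 kb it was 8 over all members, 9.5 in Slc2a, 8 in Slc7a and 8.5 in Slc16a, and with reference peaks in place of extended regions it was 9.5 in Slc2a and 7 in Slc7a. A gene-body peak at or above the median score was found in 5 Slc16a genes, compared with 9 of any score.

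Wider windows hold more letters by construction. Within 200 bp of the summit the AP-1 site was found at 7 members (21.9%, all genes 8.15%), the CARE at 5 (15.6%, all genes 2.43%), the E-box at 7 (21.9%, all genes 12.9%) and the HRE core at 15 (46.9%, all genes 33.6%). Within 50 bp the E-box was found at 1 (3.12%, all genes 5.00%) and the HRE core at 4 (12.5%, all genes 11.5%). No paired analysis was possible because the lists hold no column per library, and no library could be left out. The depth of single libraries, and thus what a missing peak means, is unknown.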
